A study of Macaca nemestrina with 15 samples.

Results

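B-cell antigen receptor signalling was followed through 9 genes, of the 28865 features in the count table, in peripheral blood mononuclear cells (PBMCs) of 5 female pig-tailed macaques (Macaca nemestrina). The genes were CD79A, CD79B, MS4A1, CD22, BLK, BTK, BANK1, BLNK and VAV2. They were selected on measured values of these libraries as well as on their function, since 7 of them, all but BLNK and BTK, are on the gene lists the study drew from both later time points. Their levels before treatment, at week 12 and at week 18 are therefore given as a description, without a test. Each animal received oral islatravir (ISL) at 30 mg/kg by gavage once a week for 12 weeks, and PBMC RNA was sequenced before the first dose (labelled Control), at week 12 and at week 18, which the study's methods place 6 weeks after the last dose and a legend of the study earlier. All animals received ISL and no untreated animals were sampled, so time and treatment cannot be told apart.

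The B-cell receptor is a surface immunoglobulin held by the CD79A and CD79B chains, whose cytoplasmic tails carry the signalling motifs. When antigen binds, Src-family kinases such as BLK phosphorylate those tails, adaptors such as BLNK and BANK1 assemble the next enzymes, BTK activates phospholipase, and Vav exchange factors act on small GTPases of the cytoskeleton. CD22 is an inhibitory lectin that dampens the signal, and MS4A1 encodes CD20, the surface protein by which B cells are counted and depleted. MS4A1, CD79A, CD79B, CD22, BLK and BANK1 (6 genes) are restricted mainly to B cells among blood cells. The other 3 are shared: BLNK and BTK are also expressed in myeloid cells, and VAV2 is expressed widely. The classes were taken from this background.

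Expression of the receptor genes was lower at both later time points in nearly every animal, and the means at week 18 were close to those at week 12, although single animals moved in both directions between them. At week 12 vs. pre-treatment, 8 of the 9 genes were lower in 5 of 5 animals, and BTK was lower in 4 of 5. Among all 12880 features tested, 3.45% were lower in 5 of 5 animals in that comparison. At week 18 vs. pre-treatment all 9 genes were lower in 5 of 5 animals, against 3.49% of all features. The members were picked on these contrasts, so nothing is read from these shares. The median log2 fold change of the 9 genes was −0.84 at week 12 and −0.82 at week 18, while the median over all features was 0.00 in both comparisons. The ranges of the 5 animals overlapped between time points in 27 of 27 combinations of gene and comparison. The share over all features is not given for this count, so nothing is read from it.

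The libraries held 5610597 to 10379572 counts (median 8871860), and all 9 genes passed the filter on low counts. Expression is given as CPM, the counts of a gene relative to the TMM-scaled size of its library. Gene lengths were not available, so levels are compared between samples and not between genes. The libraries come from bulk PBMCs, in which fewer B cells and less RNA per B cell cannot be told apart. The T-cell markers CD3D, CD3E and 8 others summed to 2530 to 3890 CPM and 10 monocyte markers to 2660 to 6300 CPM, so the lineages of PBMCs were present in every library. By the dates in their names, an animal's second library followed its first by 56 or 57 days and the third by 84 days, which differs from 12 and 18 weeks. The third library followed the second by 27 or 28 days, where the study's methods state 6 weeks after the last dose. The labels' names are kept, but whether the third library was taken after dosing cannot be told from these dates. Z15339, Z15303 and Z15408 share all 3 dates, and the other 2 (Z15228 and Z13076) have dates of their own.

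**Figure D1:**
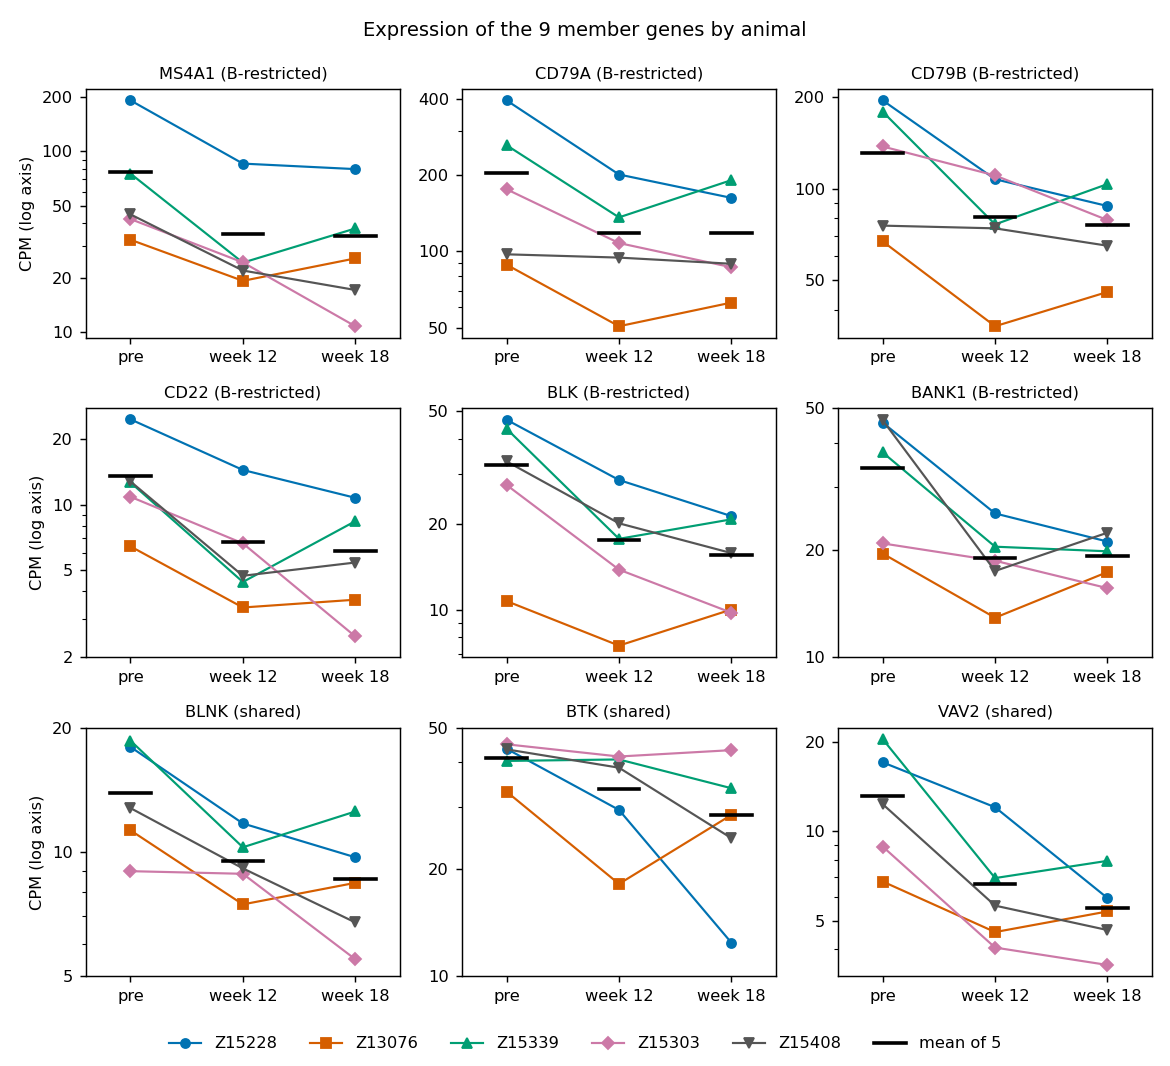
Expression in CPM (log axis, its own range in each panel) of the 9 genes in the 5 animals before treatment, at week 12 and at week 18, with each animal as a coloured line and the mean of 5 as a black bar. Lines run down from pre-treatment to week 12 in 5 of 5 animals for 8 genes and in 4 of 5 for BTK, and from week 12 to week 18 they turn upward for 9 of 9 genes in Z13076 and for none in Z15228.

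CD79A, the receptor chain also called Ig-alpha, was measured at 395.5 CPM before treatment in Z15228, 88.6 in Z13076, 263 in Z15339, 176 in Z15303 and 97.4 in Z15408. At week 12 the same animals gave 201, 50.6, 136, 108 and 94.5 CPM. Its mean went from 204 ± 128 CPM (SD, n = 5) to 118 ± 55.9, a log2 fold change of −0.79 (SE 0.43). This SE, like those below unless stated, comes from the fit without the animal as a block and so ignores the pairing. With the block the log2 fold change was −0.71 (SE 0.15). The SE with the block was smaller than that without it for each of the 9 genes against pre-treatment. It ran from 0.15 (CD79A) to 0.23 (CD22) at both later time points, so the SEs below overstate the error of a paired comparison. The decline was uneven: 4 animals lay between −0.97 and −0.71 on the log2 scale and Z15408 at −0.04. At week 18 the values were 163, 62.7, 191, 86.6 and 89.3 CPM, with a log2 fold change of −0.78 (SE 0.43) against pre-treatment.

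CD79B, the partner chain Ig-beta, moved in parallel. It was at 196, 67.2, 179.5, 138 and 75.7 CPM before treatment in the animals in the same order. At week 12 it was at 108, 35.3, 76.4, 111 and 74.1 CPM, and at week 18 at 87.8, 45.8, 104, 78.9 and 65.0 CPM. Z15408 was again nearly level at week 12, with a log2 change of −0.03. The log2 fold changes were −0.70 (SE 0.33) at week 12 and −0.78 (SE 0.33) at week 18. The ratio of the 2 chains stayed within the spread of the animals: the log2 ratio of CD79A to CD79B differed from pre-treatment by −0.02 ± 0.25 at week 12 and by 0.03 ± 0.21 at week 18 (SD, n = 5).

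MS4A1 had the largest differences between animals of the 9 genes. Before treatment Z15228 was at 191 CPM, and Z13076, Z15339, Z15303 and Z15408 were at 32.5, 75.3, 42.3 and 44.9 CPM, a coefficient of variation of 85.0%. At week 12 the 5 animals gave 85.6, 19.3, 24.3, 24.4 and 22.0 CPM. Z15228 therefore stood apart, and its value at week 12 was above the pre-treatment value of the other 4 animals although it had dropped to 44.8% of its own. At week 18 the values were 79.8, 25.6, 37.5, 10.8 and 17.2 CPM. The within-animal log2 change was −1.07 ± 0.35 at week 12 and −1.18 ± 0.58 at week 18 (SD, n = 5), and the edgeR log2 fold changes were −1.13 (SE 0.58) and −1.17 (SE 0.58). The log2 ratio of MS4A1 to CD79A was lower by 0.37 ± 0.44 at week 12 and by 0.51 ± 0.60 at week 18 on average, with animals on both sides of 0 at both time points.

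CD22 was the least abundant of the B-restricted genes in counts, with 14 to 240 reads per library, so its values carry a wider counting error. The pre-treatment values were 24.7, 6.43, 12.7, 10.9 and 12.8 CPM, those at week 12 were 14.4, 3.37, 4.42, 6.64 and 4.72, and those at week 18 were 10.8, 3.66, 8.40, 2.48 and 5.42. Z15303, with 14 reads at week 18, had the largest within-animal change of CD22, −2.03 on the log2 scale. The log2 fold changes were −1.002 (SE 0.45) and −1.12 (SE 0.45). Relative to CD79B, the log2 level of CD22 was lower by 0.37 ± 0.59 at week 12 and by 0.45 ± 0.62 at week 18, which is within the spread between animals.

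BLK, the Src-family kinase of the B lineage, ranged from 10.7 to 46.7 CPM before treatment (median 33.3), from 7.47 to 28.7 at week 12 (median 17.8) and from 9.75 to 21.4 at week 18 (median 15.8). Its log2 fold changes were −0.87 (SE 0.38) and −1.05 (SE 0.38). Z13076 had the lowest BLK at pre-treatment and at week 12 and changed least at week 18, by −0.10 on the log2 scale, while the other 4 animals lay between −1.47 and −1.05. BANK1, a scaffold protein that brings Src-family kinases to the calcium machinery, converged between animals. It was at 45.6, 19.5, 37.6, 20.9 and 46.3 CPM before treatment, at 25.3, 12.9, 20.4, 18.6 and 17.5 at week 12, and at 21.1, 17.3, 19.8, 15.6 and 22.4 at week 18. The coefficient of variation of BANK1 was 38.4%, 23.9% and 14.3% at the 3 time points, and the log2 fold changes were −0.84 (SE 0.24) and −0.82 (SE 0.25).

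**Figure D2:**
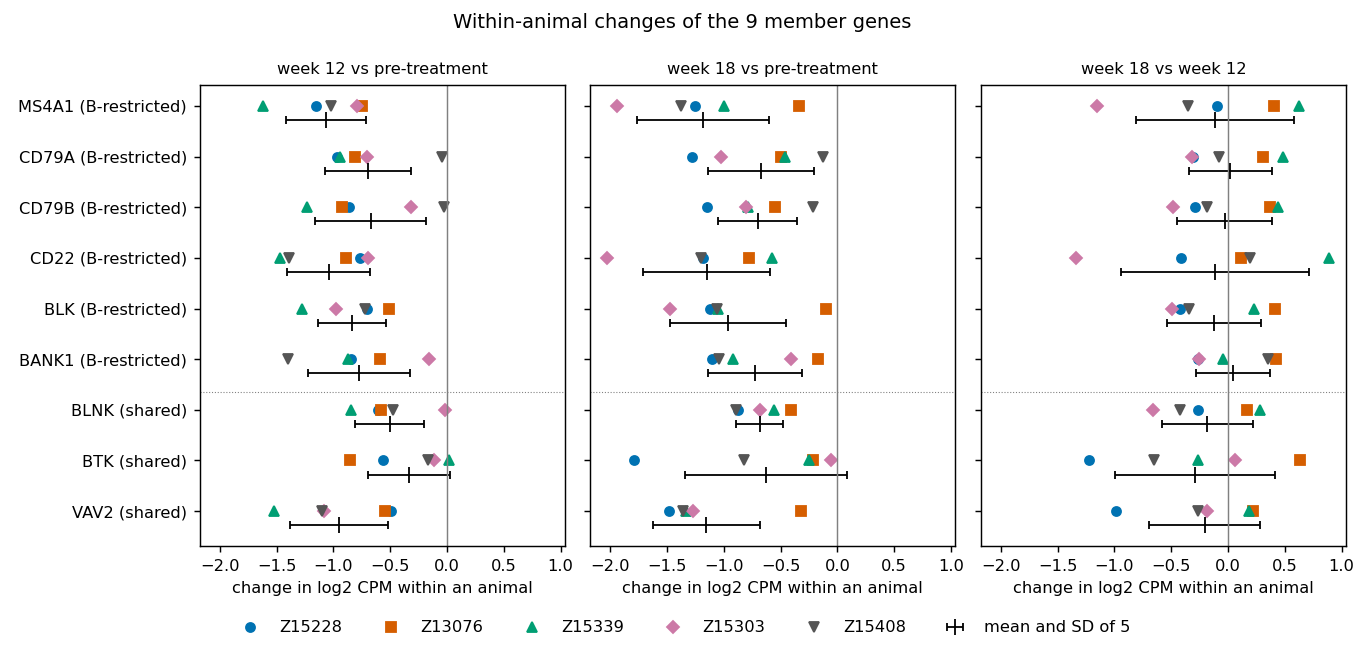
Change in log2 CPM within each of the 5 animals for the 9 genes, in 3 comparisons, with coloured points for animals and a black mark for their mean and SD. Points lie left of 0 in both comparisons with pre-treatment except BTK in Z15339 at week 12 (0.01), and on both sides of 0 for every gene at week 18 vs. week 12.

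BLNK, the adaptor that couples the kinase SYK to BTK and phospholipase, was at 18.0, 11.3, 18.6, 8.99 and 12.8 CPM before treatment. At week 12 it was at 11.7, 7.47, 10.3, 8.86 and 9.13 CPM, and at week 18 at 9.71, 8.42, 12.5, 5.50 and 6.75 CPM. Z15303 was almost level at week 12 (−0.02 on the log2 scale) and lower by 0.69 at week 18. The log2 fold changes of BLNK were −0.55 (SE 0.24) and −0.69 (SE 0.24), and its spread at week 18 was the narrowest of the 9 genes, with −0.69 ± 0.21 over the 5 animals.

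VAV2 had changes as large as those of the B-restricted genes although it is widely expressed. The values before treatment were 17.1, 6.77, 20.4, 8.88 and 12.3 CPM, those at week 12 were 12.0, 4.58, 6.96, 4.06 and 5.62, and those at week 18 were 5.96, 5.37, 7.95, 3.55 and 4.65. The log2 fold changes were −0.97 (SE 0.34) and −1.24 (SE 0.34), and that at week 18 was the lowest value among the 9 genes. At week 18, 4 animals lay between −1.48 and −1.27 and Z13076 at −0.32. VAV2 was counted at 20 to 171 reads per library. Its log2 ratio to MS4A1 differed from pre-treatment by 0.12 ± 0.36 at week 12 and by 0.03 ± 0.39 at week 18 (SD, n = 5).

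BTK followed another course. Before treatment it was similar in all animals, at 43.7, 33.1, 40.4, 44.9 and 43.5 CPM (coefficient of variation 11.7%, against 38.4% to 85.0% in the B-restricted genes). At week 12 it was at 29.4 CPM in Z15228 and 18.2 in Z13076, while Z15339, Z15303 and Z15408 were at 40.7, 41.5 and 38.6. At week 18 it was at 12.4, 28.4, 33.8, 43.3 and 24.5 CPM. The lower mean thus came mostly from Z13076 and Z15228 at week 12 and from Z15228 and Z15408 at week 18, and Z15303 differed from its own pre-treatment level by only −0.11 and −0.05 on the log2 scale. In Z15228, BTK went from 425 to 283 to 96 reads, a log2 change of −1.79 at week 18. The log2 fold changes of BTK were −0.29 (SE 0.27) and −0.53 (SE 0.27), the smallest in size of the 9 genes, and without Z15228 that at week 18 was −0.31. The 3 animals with shared dates averaged −0.09 at week 12 and the other 2 averaged −0.71.

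The monocyte markers moved beside BTK in part. In Z13076 the mean log2 change of 10 monocyte markers was −0.79 at week 12, when BTK changed by −0.85, and 1.07 from week 12 to week 18, when BTK changed by 0.64. In Z15228 the same markers changed by 0.51 at week 18 vs. pre-treatment, opposite to BTK. Over the 15 libraries, which come from only 5 animals, the Pearson correlation of BTK with the mean of the monocyte markers was −0.27 and with the mean of the B-cell markers 0.20. For the other members it ran from −0.39 (VAV2) to −0.06 (MS4A1) with the monocyte markers. With the B-cell markers it ran from 0.77 (BLNK) to 0.93 (CD22), and VAV2 was at 0.83. The part of monocytes in the BTK values was not tested.

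The comparison of B-restricted with shared genes is a description of genes chosen unequally: all 6 B-restricted genes, but only VAV2 of the 3 shared genes, are on the study's lists of genes lower at these time points, which by itself favours lower values in the first class. At week 12 the B-restricted genes changed by −0.85 ± 0.24 on average per animal and the shared genes by −0.60 ± 0.14. The difference was −0.25 ± 0.14 (SD, n = 5): −0.33 in Z15228, −0.09 in Z13076, −0.45 in Z15339, −0.20 in Z15303 and −0.19 in Z15408. The difference was below 0 in 5 of 5 animals, and was −0.16 with BLNK counted among the B-restricted genes. At week 18 the means were −0.90 ± 0.35 and −0.82 ± 0.40, and the difference of −0.08 ± 0.33 was below 0 in 3 of 5 animals and turned to 0.055 without Z15303, to −0.15 without Z15228 and to −0.15 without Z15408. Animals with shared dates gave −0.17 and the other 2 gave 0.06 at week 18, whereas at week 12 both sets were below 0 (−0.28 and −0.21).

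The 3 shared genes differed among themselves at week 12, along the same line as their choice, since VAV2 is on the study's lists and BLNK and BTK are not. Measured against the mean of the 6 B-restricted genes in the same animal, BLNK was higher by 0.34 ± 0.16 at week 12, above 0 in 5 of 5 animals, and BTK by 0.51 ± 0.50, above 0 in 4 of 5. At week 18 BLNK was at 0.22 ± 0.26, above 0 in 3 of 5 animals, and BTK at 0.27 ± 0.68, above 0 in 4 of 5. VAV2 differed by −0.10 ± 0.38 at week 12 and −0.25 ± 0.29 at week 18. Each B-restricted gene was measured against the mean of the other 5. Their mean differences ran from −0.26 to 0.21 at week 12 and from −0.34 to 0.27 at week 18. Within the B-restricted class, CD79A and CD79B lay above the class mean and MS4A1 and CD22 below it on average at both time points, but at week 12 CD79A was below the class mean in 3 of 5 animals. The distance of the CD79 chains was widest in Z15408. There CD79A lay 0.87 and CD79B 0.89 above the mean of the other 5 B-restricted genes at week 12. In the same animal CD22 and BANK1 changed by −1.40 and MS4A1 by −1.02.

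Across the 15 libraries the levels of the 9 genes followed each other to different degrees. Pearson's r between log2 CPM of the B-restricted genes ranged from 0.65 to 0.93 over 15 pairs (median 0.83). The shared gene VAV2 had r of 0.69 to 0.88 with them (median 0.84) and BLNK 0.66 to 0.84 (median 0.79), whereas BTK had −0.02 to 0.48 (median 0.31). These values describe libraries that share animals and time points, and carry no test.

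**Figure D3:**
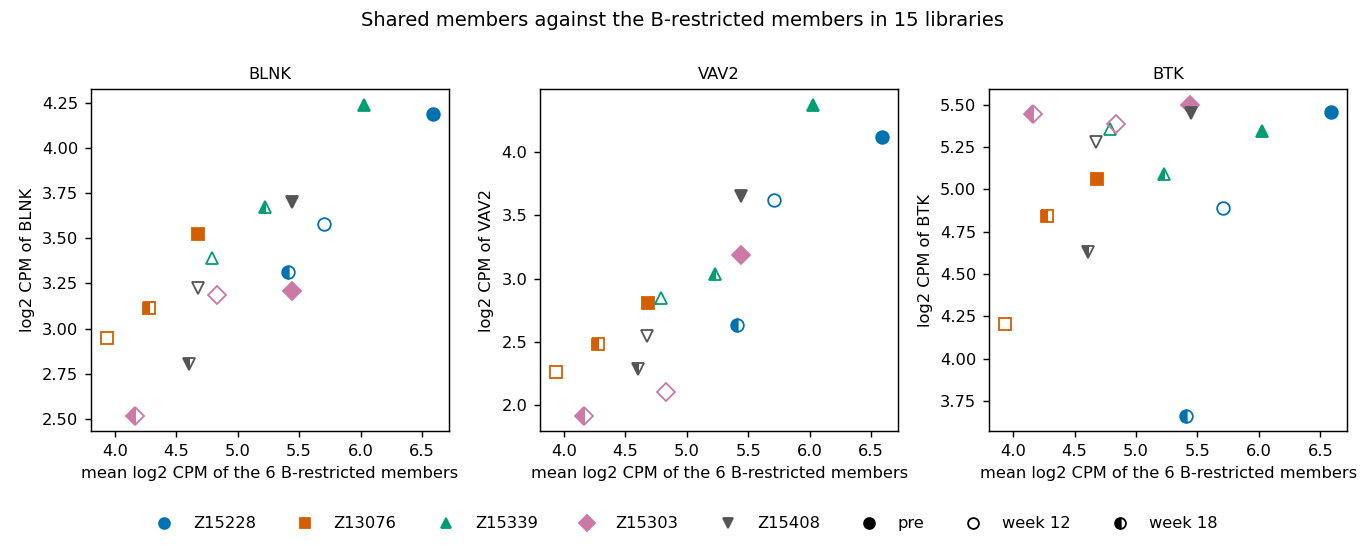
Log2 CPM of BLNK, VAV2 and BTK (vertical axes) against the mean log2 CPM of the 6 B-restricted genes (horizontal axis) in 15 libraries, with colour and shape for the animal and filling for the time point. BLNK and VAV2 climb with the B-restricted genes, and BTK does not, with its lowest value, 3.66, in Z15228 at week 18.

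The genes whose levels were most like those of 4 members were named by the highest Pearson r over the same 15 libraries. Among the genes most like MS4A1 were CYB561A3 (r = 0.92) and ZBTB32 (0.92). BLNK was most like SSPN (0.91), TNFRSF13B, a receptor for BAFF and APRIL (0.88), and the B-lineage transcription factor EBF1 (0.86). VAV2 was most like the transcription factor MEF2C (0.88), the phosphatase PTPN13 (0.88) and CYB561A3 (0.86). BTK was most like UBE2E1, a ubiquitin-conjugating enzyme (0.89), JUP (0.84) and PGRMC2 (0.83), none of which is on the lists of B-cell markers or pathway genes used here.

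B-cell markers outside the study's gene lists moved with the receptor genes. Of 20 such markers, 15 could be tested, including EBF1, CXCR5, FCER2 and CD40. Their mean within-animal change was below 0 for 15 of 15 markers at week 12, though ADAM28 was nearly level (−0.012). At week 18 it was below 0 for 13 of 15, and COCH was highest (0.41). The same share over all features is not given. The median log2 fold change over all features was 0.00 in both comparisons. PAX5 and TNFRSF13C had too few reads, and SPIB, HLA-DOB and P2RX5 were not used here. The summed level of the 15 together with PAX5 and TNFRSF13C was 161 to 227 CPM before treatment, 117 to 174 at week 12 and 116 to 183 at week 18. The mean log2 change of the 15 was −0.59 at week 12 and −0.50 at week 18, below 0 in 5 of 5 animals each time. The 6 B-restricted genes were further down than these markers in every animal, by 0.26 ± 0.13 on the log2 scale at week 12 and 0.40 ± 0.23 at week 18. That distance was widest for MS4A1 (−0.48 ± 0.19 and −0.68 ± 0.35) and CD22 (−0.45 ± 0.31 and −0.65 ± 0.42), each below 0 in 5 of 5 animals, and it was smaller than its spread for CD79A (−0.10 ± 0.36 and −0.18 ± 0.51). The 6 genes were chosen with their lower values in view, and the markers leave out genes on the study's lists. Both choices by themselves favour a distance in this direction. Some markers were also low, with pre-treatment means of 1.89 CPM for VPREB3, 1.58 for ADAM28 and 1.46 for COCH. At such levels the prior count draws changes toward 0. The part of other blood cells in the marker values was not tested.

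Markers of other PBMC lineages gave smaller mean changes than the B-cell markers, except those of plasma cells at week 18. At week 12 and week 18 vs. pre-treatment the mean log2 change was 0.11 and 0.11 for 10 T-cell markers, −0.11 and 0.24 for 10 monocyte markers, 0.17 and −0.11 for 7 NK-cell markers, and 0.14 and 0.11 for 4 platelet markers. Plasma-cell markers (4 of 6 tested) were at −0.36 and −0.59, and those of plasmacytoid dendritic cells (4 of 5 tested) at 0.19 and 0.09. These means hide larger changes in single animals. At week 12 the animals ran from −1.22 to 1.07 for platelet markers and from −0.79 to 0.29 for monocyte markers. For T-cell markers they ran from −0.02 to 0.17. The part of B-cell number in the values of the 9 genes was not tested.

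Week 18 vs. week 12, by the labels' names, sets samples taken after dosing against samples taken during it, which the dates in the library names leave unsettled. The members were not picked on this comparison, but it shares the week 12 and week 18 libraries with those they were picked on. No member passed the test: the log2 fold changes ran from −0.28 (VAV2, SE 0.35) and −0.24 (BTK, SE 0.27) to 0.02 (BANK1, SE 0.25), each with an adjusted p of 1 by edgeR's quasi-likelihood test over all 12880 features, with and without the animal as a block. The smallest unadjusted p among the 9 was 0.374 for BTK without the block and 0.235 with it. Over all features, 0% passed the adjusted threshold. An unadjusted p under 0.05 was found for 0.505% of features (2.17% with the block) and for 0 of the 9 genes. For MS4A1 the SE was 0.58 without the block and 0.19 with it, so the missing call does not show that the level was the same. The sign of this comparison turned for 6 of the 9 genes when an animal was left out.

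The direction in which the 9 genes moved after week 12 differed between the 5 animals. All 9 genes were higher at week 18 than at week 12 in Z13076 (median log2 change 0.37), and 7 of 9 were higher in Z15339 (median 0.28). All 9 were lower in Z15228 (median −0.31), 8 of 9 in Z15303 (median −0.49) and 7 of 9 in Z15408 (median −0.26). The share of all features that moved the same way in the same animal is not given beside these counts, so nothing further is read from them. No gene was lower in 5 of 5 animals, against 2.87% of all features. Z15303 had the lowest level of 6 of the 9 genes at week 18, whereas Z13076 had been lowest for 8 of the 9 both before treatment and at week 12. B-cell markers outside the lists changed between week 12 and week 18 in the same direction as the median of the 9 genes in Z13076 (0.27), Z15339 (0.37), Z15303 (−0.25) and Z15408 (−0.09), and in the opposite direction in Z15228 (0.16).

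To place the 9 genes in their pathway, 80 other genes of B-cell receptor signalling were listed from textbook knowledge, of which 74 passed the filter. The list does not hold the 9 members, and items withheld for evaluation were taken out after its values had been seen. This by itself favours fewer calls and smaller changes among the genes that remain. None passed an adjusted p of 0.05 in any comparison, by edgeR's quasi-likelihood test or by DESeq2, with or without the animal as a block. Over all 12880 features 0% passed at week 12 and 0% at week 18 by edgeR without the block. With the block edgeR called 1 feature at week 12 and 1 at week 18. DESeq2 without the block called 1 at week 12 and 0 at week 18. DESeq2 with the block called 21 features at week 12, 50 at week 18 and 8 at week 18 vs. week 12, so the background was not empty in every fit.

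At an unadjusted p under 0.05 by edgeR, 4 of the 74 pathway genes were lower at week 12 and 0 were higher, while 1.09% of all features were lower and 0.52% higher. With the animal as a block 7 were lower and 0 higher, against 3.25% and 1.44% of all features. SIGLEC10, an inhibitory lectin related to CD22, had the smallest unadjusted p of these genes at week 12 without the block (log2 fold change −0.45, SE 0.17, edgeR adjusted p of 1). The complement receptor CR2 was at −0.80 (SE 0.30) and the PI3-kinase adaptor PIK3AP1 at −0.47 (SE 0.20), each with an edgeR adjusted p of 1. At week 18, 2 pathway genes were lower and 0 higher, against 1.08% and 0.613% of all features, and with the block 6 and 0, against 3.78% and 2.07%. These 2 were PLCG2, the phospholipase downstream of BTK (−0.41, SE 0.18), and PIK3AP1 (−0.45, SE 0.20), and the next by unadjusted p was VAV3 (−0.28, SE 0.15). At week 18 vs. week 12, PIK3R1 (−0.26, SE 0.12) and FOS (0.34, SE 0.14) had an unadjusted p under 0.05. The counts rest in part on single animals. At week 12 the 4 genes became 2 without Z15228, 1 without Z15339 and 1 without Z15408. At week 18 the 2 genes became 1 without Z15228, 4 without Z13076, 0 without Z15339 and 1 without Z15408. At week 18 vs. week 12 the 2 genes became 1 without Z15228 or Z13076 and 0 without Z15339 or Z15408.

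The steps of the pathway were described by their medians, without a test between them. The median log2 fold change of the 74 genes was −0.05 at week 12 and −0.08 at week 18, beside −0.84 and −0.82 for the 9 members, 7 of which are on the study's lists. At week 12 the medians of the steps ran from −0.19 for the 8 inhibitory receptors and phosphatases to 0.02 for the 8 PI3-kinase genes. Among the surface co-receptor genes, CR2 stood apart from CD81 (−0.07, SE 0.11) and IFITM1 (0.12, SE 0.13), which many blood cells express. The proximal kinases had a median of −0.06 at week 12. LYN, the main Src-family kinase of B cells and also present in myeloid cells, was at −0.31 (SE 0.16) and lower in 5 of 5 animals, and SYK, which myeloid cells share, was at −0.07 (SE 0.11). VAV1 was at −0.00 (SE 0.12) and VAV3 at −0.14 (SE 0.15) at week 12, beside −0.97 for their relative VAV2. Genes further downstream, in the Ras and MAPK branch, had medians of −0.02 and −0.01 at the later time points. In all, 4 pathway genes (5.4%) were lower in 5 of 5 animals at week 12, 9 (12.2%) at week 18 and 2 (2.7%) at week 18 vs. week 12, against 3.45%, 3.49% and 2.87% of all features.

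**Figure D4:**
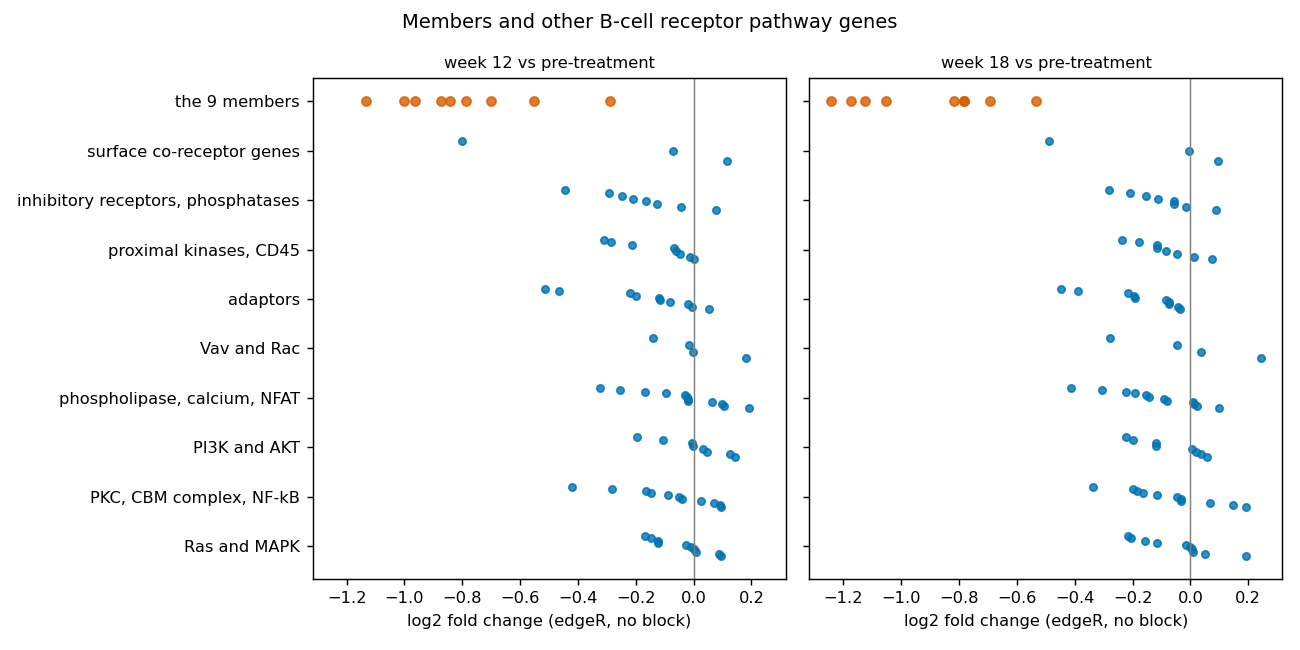
Log2 fold changes (edgeR, time point only) at week 12 and week 18 vs. pre-treatment for the 9 members (orange) and the 74 other pathway genes (blue), by step of the pathway. The members, 7 of which were chosen from the study's lists, lie between −1.24 and −0.29, and the other genes lie between −0.80 (CR2) and 0.19 at week 12 and between −0.49 and 0.24 at week 18.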

How the data were processed

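PBMC RNA of 5 animals at 3 time points was measured in 15 libraries. The authors made cDNA with SMART-Seq v4, prepared libraries with Nextera XT, aligned paired reads with STAR 2.7.9a to an Ensembl M. nemestrina annotation and deposited raw counts per gene. The strand setting is not given in the sources used here, so reads of overlapping antisense genes cannot be told apart. Labels gave each library's animal and time point.

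The members, the pathway list and the marker lists were chosen with earlier results of these data known. Counts were scaled by TMM, and log2 CPM used a prior count of 2. Features were tested with edgeR's quasi-likelihood method (R 4.3.3, edgeR 4.0.16, filterByExpr with a minimum count of 10, time point as the only term, all 15 libraries), adjusted by Benjamini-Hochberg over 12880 features. The SE of a log2 fold change was taken as its size over the root of its F statistic. The pipeline was tested on simulated data. Within-animal changes are differences of log2 CPM, with the animal as n.

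The label pairs the libraries of an animal. Their deviations from the time-point means had a mean correlation of 0.551 (lowest 0.351, 15 pairs), against −0.137 over 60 other pairs, and the biological coefficient of variation was 29.3% without and 16.9% with the animal as a replicate block. Alternatives were that block, DESeq2 1.42.0 with and without it, no TMM, no filter, other prior counts, other class assignments, the animals with shared dates and leaving out each animal. Depth was 5610597 to 10379572 counts per library, and intervals from it would cover counting error only. No 2 libraries of a group matched within sampling noise (lowest chi-square per degree of freedom 25.4).

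All 9 members are named. Of the other pathway genes, CR2, CD81, LYN, SYK and PLCG2 are named, with up to 3 of the smallest unadjusted p in each comparison where none passed. IFITM1, VAV1 and, at week 12, VAV3 were named after their values were seen. For MS4A1, BLNK, BTK and VAV2 the 3 genes of highest r are named, except that results for items withheld for evaluation are not reported here. These items were also left out of the pathway list, after its values had been seen. Gene positions and sequences were not used here.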

Additional observations from a re-analysis of the deposited data

Results flagged for a closer look

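In 54 groups of 5 values (the level of each member at each time point and its within-animal change in each comparison), 3 held an animal whose gap to the nearest other animal exceeded 0.71 of the group's range. Chance gives about 1 such group in 20. MS4A1 at week 12 was at 6.42 log2 CPM in Z15228 and at 4.29 to 4.62 in the other animals. The log2 change of CD79A at week 12 vs. pre-treatment was −0.043 in Z15408 and −0.97 to −0.71 in the others. The log2 change of VAV2 at week 18 vs. pre-treatment was −0.32 in Z13076 and −1.48 to −1.27 in the others.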

How the results depend on the processing

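The log2 fold changes of the 9 genes against pre-treatment kept their direction and moved by less than 1 SD of the within-animal changes in 90 of 90 alternatives at week 12 and 90 of 90 at week 18. By ratio, only BTK at week 18 moved by over 1.5 times, from −0.53 to −0.31 without Z15228. The number of features past the adjusted p was 0 in each comparison. With the animal as a replicate block it was 1 at week 12 and 1 at week 18 (the immunoglobulin segment IGKV1OR2-108, named after its value was seen), by DESeq2 without the block 1 at week 12 (PHTF2, likewise), and by DESeq2 with the block 21, 50 and, at week 18 vs. week 12, 8. The count of pathway genes at an unadjusted p under 0.05 went from 4 to 7 at week 12 and from 2 to 6 at week 18 with the block, by edgeR and by DESeq2 alike. Leaving out each animal gave 1 to 4 (lowest without Z15339 or Z15408), 0 to 4 (lowest without Z15339) and, at week 18 vs. week 12, 0 to 3 against 2 (0 without Z15339 or Z15408). Without the filter that last count was 1.

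At week 18 vs. week 12, leaving out an animal turned the sign for MS4A1 (−0.18 to 0.076), CD79A (−0.18 to 0.15), CD79B (−0.24 to 0.039), CD22 (−0.38 to 0.086), BANK1 (−0.066 to 0.12) and VAV2 (−0.44 to 0.022), with an adjusted p of 1 in every fit. The difference between B-restricted and shared genes kept its sign in all alternatives at week 12 and was smallest with BLNK among the B-restricted genes (−0.16 against −0.25). At week 18 it ran from −0.15 to 0.055 when an animal was left out, above 0 without Z15303 (0.055), and was 0.0205 with BLNK among the B-restricted genes and 0.056 in the 2 animals with dates of their own. The cause was not tested. Depth limits CD22 and VAV2 most, with 14 and 20 reads in their lowest library, and 5 animals without untreated controls limit every comparison.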
